A study of Mus musculus with 10 samples.

Results

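Genes that arm the mature neutrophil were followed through promoter-capture Hi-C maps of mouse bone marrow. The set held 36 genes, and a gene was kept where a captured promoter fragment (a bait) held its start or its end in mm10. Of these, 20 genes lay on 23 baits of the 13024 baits listed in the study. Those baits carried 226 of the 88624 fragment pairs listed for stem and progenitor cells (HSPC) and 77 of the 25622 pairs listed for neutrophils. The other 16 genes (Chil3, Clec4e, Cxcl2, Cyba, Cybb, Hp, Il1b, Lcn2, Ltf, Mrgpra2a, Mrgpra2b, Slpi, Stfa1, Stfa2, Stfa2l1 and Stfa3) had no listed bait, and they were followed only as other ends that held their start or end.

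Promoter-capture Hi-C crosslinks chromatin, cuts it with HindIII, joins fragments that lie close together in the nucleus and then enriches the joined pieces that contain a promoter. Each pair of a bait with another fragment (the other end) came with a score that is never negative, where a higher score is a stronger contact. The sources used here give neither its formula nor the read depth behind it. The 10 libraries formed 5 groups of 2 biological replicates, all on C57BL/6. HSPC were bone marrow cells left after depletion of lineage-marked cells, from wild-type (WT) mice, Npm1flox-cA/+;Mx1-Cre+ mice (Npm1c), Flt3ITD/+ mice (Flt3-ITD) and Npm1flox-cA/+;Flt3ITD/+;Mx1-Cre+ mice carrying both mutations (DM). The last group was WT bone marrow neutrophils, taken with an isolation kit. Mx1-Cre is driven by an interferon-inducible promoter that is active in many cell types, so recombination is not limited to blood progenitors, and the labels used here do not say how it was induced. Ages and the number of mice per library are not stated in the labels.

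Neutrophils are short-lived white cells that reach a site of infection first. They carry antimicrobial proteins in granules that are filled in sequence as the cell matures, they sense bacterial peptides and cytokines through surface receptors, and they make oxidants with a membrane-bound oxidase. Most of the genes followed here are switched on late in that maturation, and progenitors hold them at low activity. A promoter can contact distant DNA before, during or after the gene is active, so a contact is not a measure of expression. Npm1c is a mutant nucleophosmin that is moved to the cytoplasm, Flt3-ITD is a growth-factor receptor that signals without its ligand, and both together drive acute myeloid leukaemia in mice.

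A pair stood in the HSPC list if some HSPC group scored 5 or more in each of its replicates, and in the neutrophil list if both neutrophil libraries did. A pair that met this mark in a group is called passing there. An other end is named for the protein-coding genes that overlap it, and its distance is taken between fragment centres. Over all 88624 HSPC pairs, 47.0% and 53.4% reached 5 in the WT libraries and between 51.8% and 64.1% in the 6 mutant libraries. Expression was not measured in these files, so cell identity could not be checked against marker levels. As a stand-in, promoters of stem and progenitor genes (9 of 15 genes with a bait) held 24 passing pairs in WT HSPC and 3 in neutrophils, while promoters of 18 other neutrophil genes with a bait held 38 in WT HSPC and 129 in neutrophils. In these bulk libraries a contact made in more cells and a contact made more often per cell cannot be told apart.

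The effector baits had 69 passing pairs in WT HSPC, 83 in Npm1c, 118 in Flt3-ITD, 136 in DM and 77 in neutrophils. Relative to WT HSPC these totals were 1.20 times as high in Npm1c, 1.71 in Flt3-ITD, 1.97 in DM and 1.12 in neutrophils, against 1.20, 1.47, 1.40 and 0.829 for all listed pairs. Among the 226 HSPC pairs, 105 and 100 reached 5 in the WT libraries, 112 and 124 in Npm1c, 146 and 146 in Flt3-ITD, and 155 and 159 in DM. Every Flt3-ITD and DM library was thus above every WT and Npm1c library. The listing favours this order: 59 of the 226 pairs were listed through DM alone and 16 through WT HSPC alone. Over all HSPC pairs, Npm1c replicate 2 (61.5% at 5 or more) was above DM replicate 1 (60.8%). With 2 libraries a group, an exact two-sided permutation test cannot give a p below 0.333, so these totals carry no test. Wfdc21 weighed heavily: without its baits the DM total was 1.62 times that of WT HSPC, and without Ifitm6 it was 2.41 times.

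More effector baits gained passing pairs than lost them in each mutant, as was also the case over all baits. In Npm1c the effector shares were near those of all baits. In Npm1c, 9 of 17 baits with a pair in either group had more than in WT HSPC and 5 had fewer (over all baits 51.1% had more and 33.7% fewer). In Flt3-ITD, 14 of 20 had more and 4 fewer (59.8% and 27% over all baits), and in DM, 15 of 19 had more and 3 fewer (56.5% and 31.4% over all baits). In neutrophils, 11 of 20 had more than in WT HSPC and 6 had fewer, whereas over all baits 36.2% had more and 53.8% had fewer. These counts depend on the score chosen as a minimum, since at a score of 7 the neutrophil count was 6 baits with more and 5 with fewer, and at 10 it was 2 and 2.

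**Figure D1:**
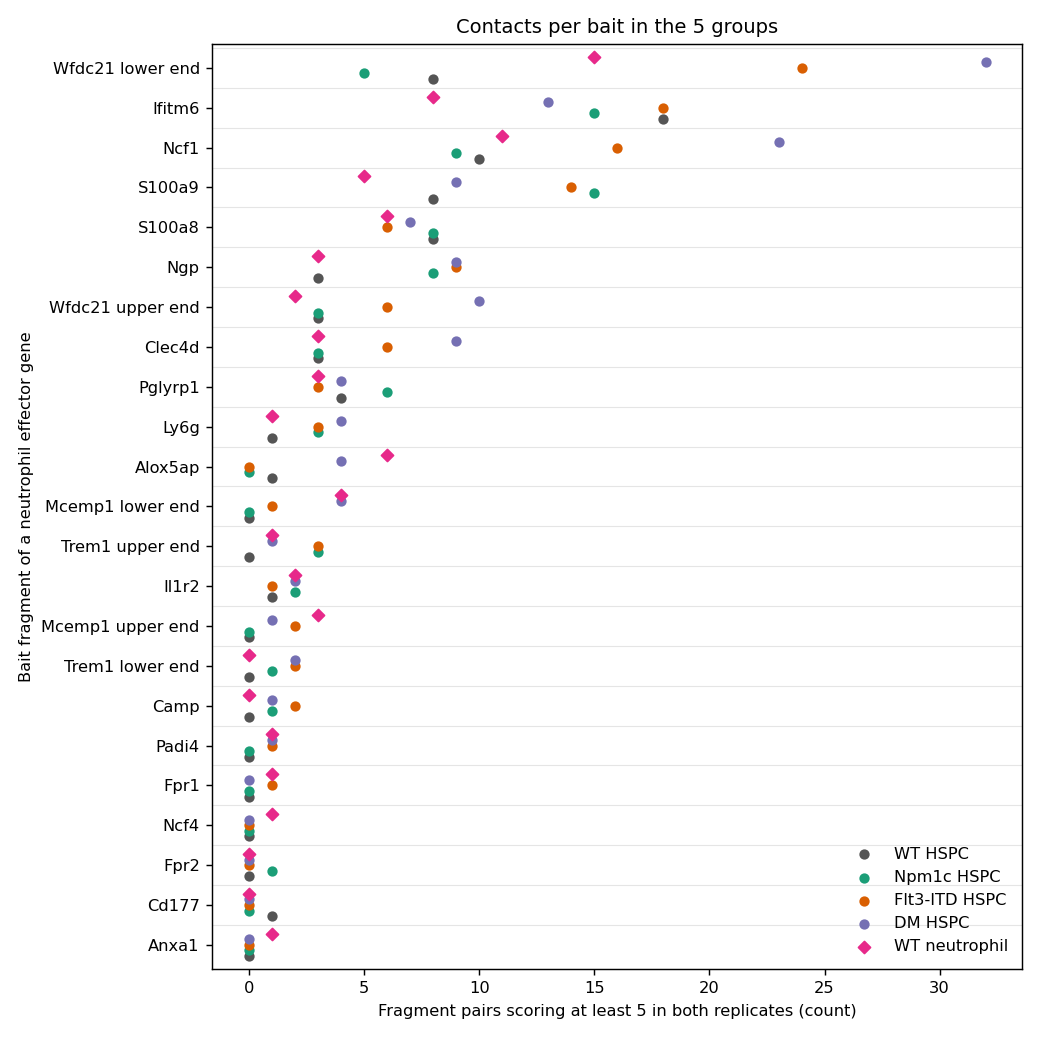
Number of fragment pairs scoring at least 5 in both replicates (horizontal axis, count) for each of the 23 baits (rows) in the 5 groups (colours; neutrophils as diamonds, HSPC groups as circles). The Wfdc21 lower-end bait runs from 5 pairs in Npm1c to 32 in DM, while Ifitm6 has its lowest count, 8, in neutrophils.

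Pairs that were found in DM alone among the HSPC groups made up 59 of the 226 (26.1%, against 18.5% of all pairs), and those found in WT HSPC alone made up 16 (7.08%, against 10.3%). Pairs passing in all 4 HSPC groups numbered 24 (10.6%, against 10.2%). All effector pairs joined fragments of the same chromosome. Of the 77 neutrophil pairs, 26 also passed in WT HSPC (33.8%, against 31.0% of all neutrophil pairs), 23 in Npm1c (29.9%, against 32.4%), 36 in Flt3-ITD (46.8%, against 39.4%) and 39 in DM (50.6%, against 38.0%). There were 19 neutrophil pairs that passed in DM and not in WT HSPC (24.7%, against 15.6%) and 6 that passed in WT HSPC and not in DM (7.79%, against 8.64%). These shares are descriptions, since pairs of 1 bait are not independent of each other. Promoters of the 18 other neutrophil genes also held more passing pairs in DM, 87 against 38 in WT HSPC, and whether a different mix of cells in the DM marrow plays a part was not tested.

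For a test, the scores of a bait were averaged as log2(score + 1) over the pairs brought into the list by groups outside the comparison, and the averages were compared with limma over all baits that had at least 3 such pairs. In DM against WT HSPC, 1 of 13 effector baits tested was called higher at a Benjamini-Hochberg adjusted p under 0.05 and none lower (over all baits 2% were called higher and 0.408% lower). In Flt3-ITD, limma called 0 of 15 effector baits (0.644% of all baits higher), with 7 at an unadjusted p under 0.05, all higher (22.2% of all baits). In Npm1c, limma called 0 of 15 effector baits (0% of all baits), with 3 at an unadjusted p under 0.05, all higher (9.86% of all baits). For neutrophils against WT HSPC the averages instead used pairs passing in both cell types. There, limma called 0 of the 3 effector baits that could be tested (2.17% of all baits higher and 1.37% lower), with 0 at an unadjusted p under 0.05. Contacts that passed in only 1 of the 2 cell types were left out, so this test cannot show contacts gained or lost. With all pairs of a bait found in both lists, 0 of 5 effector baits were called, beside 19.2% of all 1543 baits.

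The median difference over the effector baits on this log2 scale was 0.17 for Npm1c, 0.38 for Flt3-ITD and 0.38 for DM, beside 0.13, 0.24 and 0.10 over all baits tested. Both DM libraries lay above both WT libraries for 9 of 13 effector baits (33.1% of all baits), both Flt3-ITD libraries for 8 of 15 (46.4%) and both Npm1c libraries for 5 of 15 (28.2%). The 3 comparisons share the same WT libraries and so are not independent. Single pairs were tested as well, and since each pair is listed because some group scored high, those tests favour differences. Pairs tested that way gave 1 call in Npm1c, 1 in Flt3-ITD, 2 in DM and 1 in neutrophils, all higher than in WT HSPC. Over all pairs 0.231%, 0.484%, 0.413% and 0.206% were called higher and 0.0869%, 0.0925%, 0.157% and 0% lower. Among pairs brought into the list by groups outside the comparison, 0 effector pairs were called in each HSPC comparison. Over all such pairs 0 of 66793 were called in Npm1c, 17 of 63453 in Flt3-ITD and 0 of 61361 in DM, so these zeros are not particular to the effector pairs. A separate limma test asked whether the effects of Npm1c and Flt3-ITD add up in DM on this scale, over all listed pairs of a bait: it called 0 of 16 effector baits (5.2% of all baits). At 6 of the 16, the effect of a mutation went opposite ways with and without the other mutation, as it did at 21.8% of all baits.

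**Figure D2:**
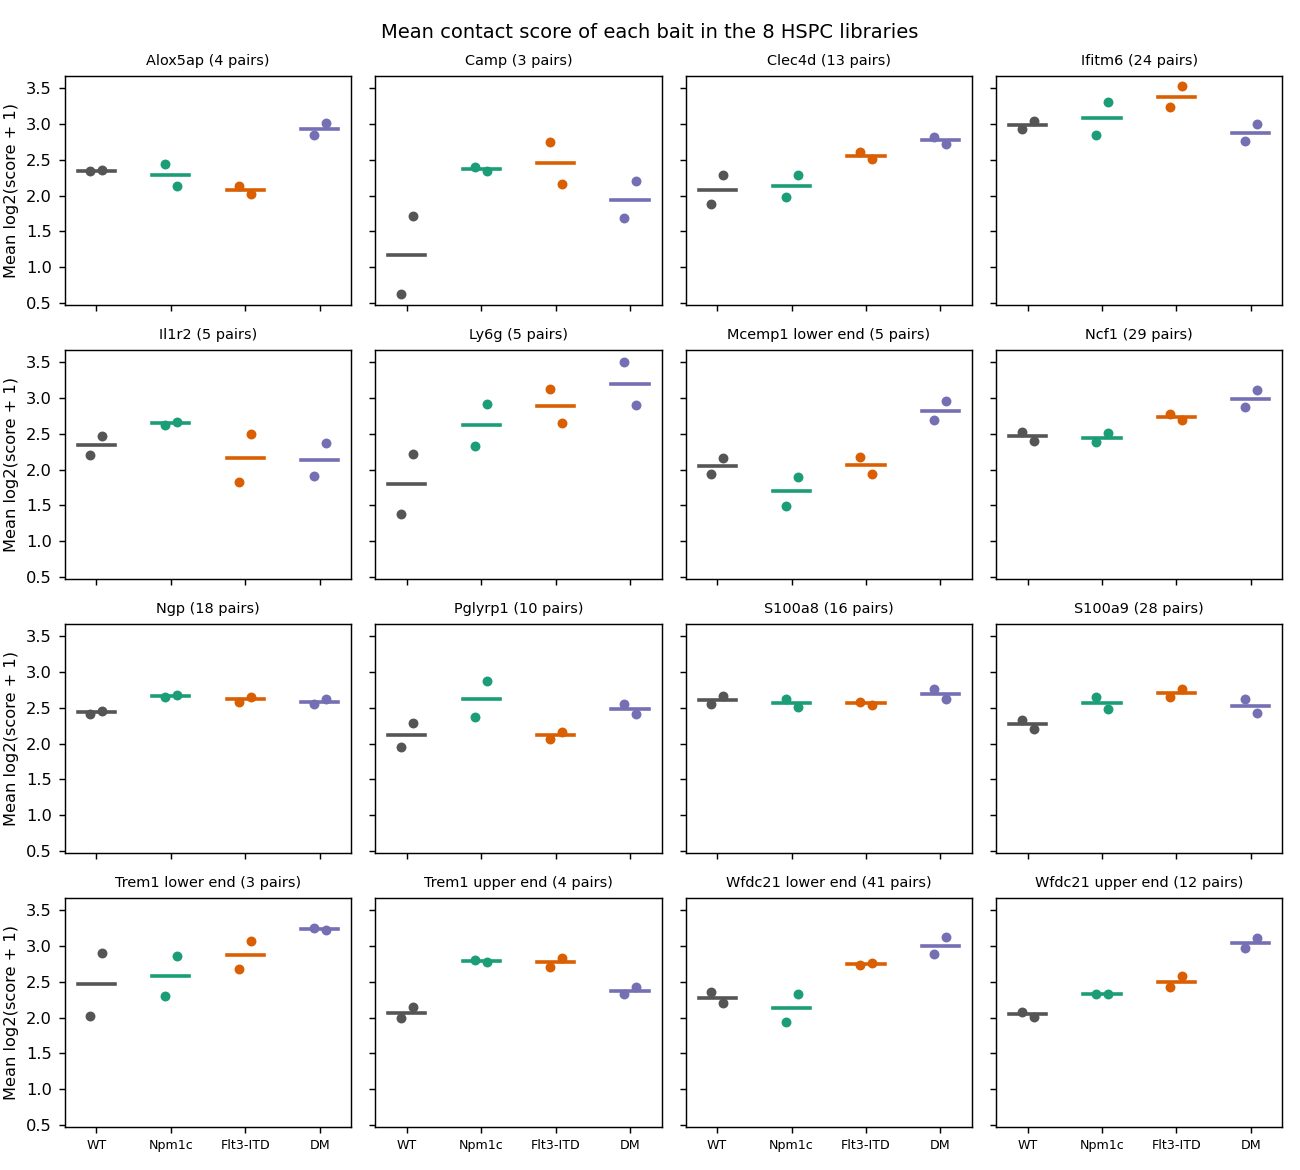
Mean log2(score + 1) over all listed pairs of each bait (vertical axis) in the 8 HSPC libraries, for the 16 effector baits with at least 3 pairs; points are libraries and bars are group means. Wfdc21 upper end and Ncf1 have both DM libraries above the other 6, while S100a8 stays within a narrow band. Pairs listed through DM alone enter these means, which favours high DM values.

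Among the granule proteins, Wfdc21, a small secreted whey-acidic-protein domain factor, had the most contacts. A bait held the lower end of the gene (chr11:83738875-83747983) and another held its upper end together with the gene Heatr6 (chr11:83751588-83754084). The lower-end bait had 8 passing pairs in WT HSPC, 5 in Npm1c, 24 in Flt3-ITD, 32 in DM and 15 in neutrophils. All 44 of its other ends, over both lists, lay at lower coordinates, between 92.7 kb and 314 kb away. They covered the CC chemokine genes Ccl3, Ccl4, Ccl5 and Ccl6 and the more distant Taf15 and Mmp28.

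**Figure D3:**
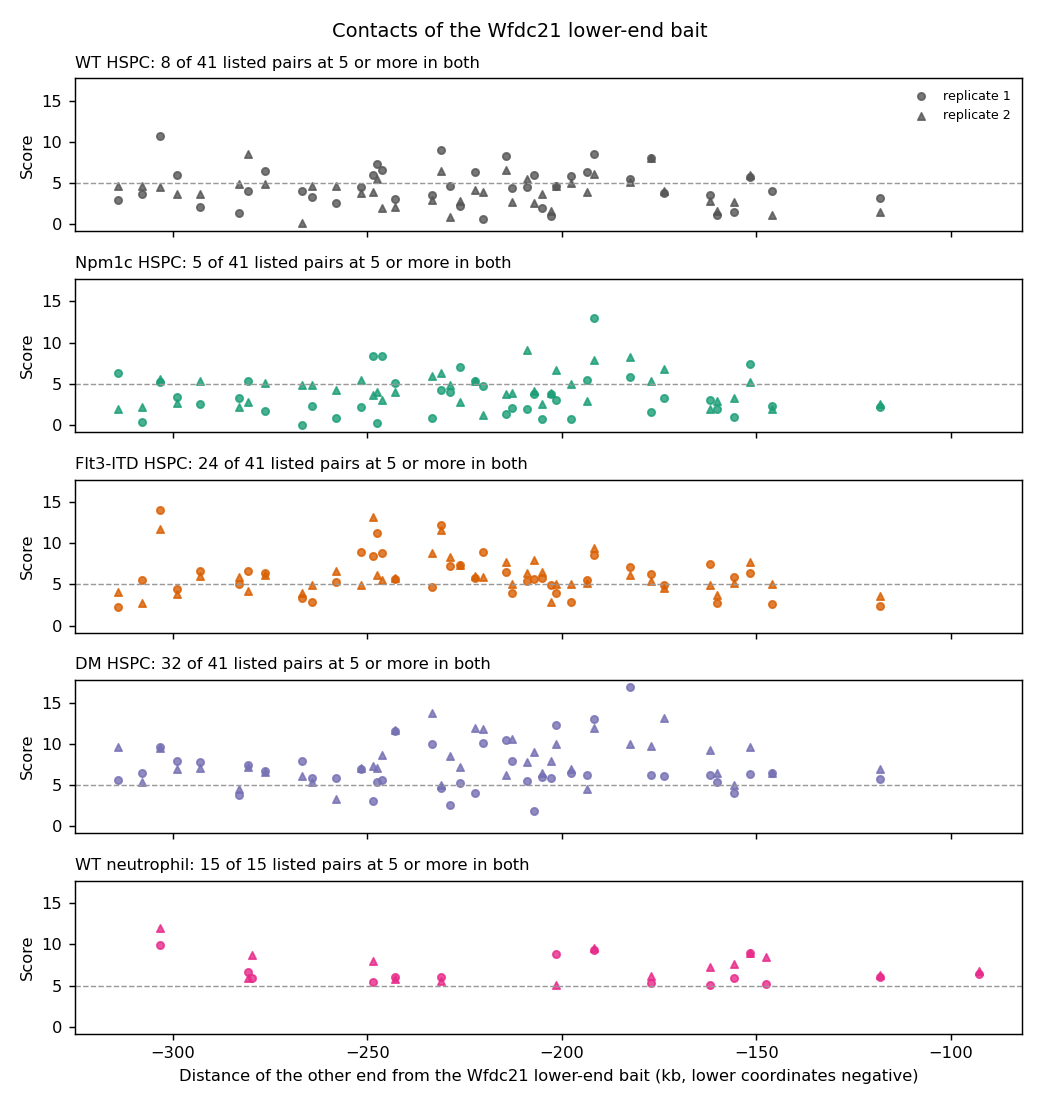
Score of each listed pair of the Wfdc21 lower-end bait (vertical axis, 2 replicates as circles and triangles) against the distance of its other end from the bait (kb, negative towards lower coordinates) in the 5 groups. The dashed line marks a score of 5; DM points lie above it for 32 of 41 pairs and WT HSPC points for 8, and the neutrophil panel holds passing pairs only because that list does.

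For each bait the strongest contact is the one with the highest mean score in any 1 group, so the group that set it is high by that choice. For the lower-end bait that group was DM, and the contact reached a fragment 183 kb away that overlapped no protein-coding gene. Its scores were 5.51 and 5.19 in WT HSPC, 5.82 and 8.23 in Npm1c, 7.13 and 6.15 in Flt3-ITD, and 16.9 and 9.99 in DM, and it was not in the neutrophil list. The pair did not pass the test in DM (difference 1.14 on the log2(score + 1) scale, SE 0.35, limma adjusted p = 0.152). The contact with Ccl6, a chemokine made by myeloid cells, passed in all 5 groups: it scored 5.80 and 5.96 in WT HSPC and 8.99 and 8.90 in neutrophils. The contact with a fragment holding Ccl3 and Ccl4, genes for inflammatory chemokines, was listed in neutrophils alone, at 6.36 and 6.82. Over the 24 pairs chosen by groups outside the comparison, the lower-end bait averaged 2.47 and 2.35 in the WT libraries and 2.82 and 3.10 in DM. That DM difference of 0.55 (SE 0.16) missed the threshold, with a limma adjusted p of 0.0871. Of its 15 neutrophil contacts, WT HSPC already had 4, Npm1c 3, Flt3-ITD 8 and DM 9.

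The Wfdc21 upper-end bait was the effector bait called in DM. Over 7 pairs chosen by the other groups, its mean log2(score + 1) was 2.25 and 2.08 in the WT libraries and 3.15 and 3.12 in DM. The difference was 0.97 (SE 0.19, limma adjusted p = 0.0408), and the groups did not overlap. The call rests on narrow ground. It was lost with quantile normalization, with the replicate number as a block, with the prior variance held constant or with the 4 compared libraries fitted alone. It was lost too without WT replicate 2 or either DM library, but such fits leave 1 library in a group. With 1 library left out the difference ranged from 0.89 to 1.06. Because the fragment also holds the end of Heatr6, its contacts cannot be assigned to 1 gene. The bait met several fragments of Taf15, which encodes an RNA-binding protein of the transcription machinery. The contact 258 kb away scored 0.545 and 1.24 in WT HSPC, 4.58 and 4.76 in Npm1c, 7.67 and 10.5 in Flt3-ITD, 9.62 and 4.87 in DM, and 6.27 and 5.74 in neutrophils. It was called in Flt3-ITD (difference 2.43, SE 0.39, limma adjusted p = 0.0482), and in DM it was 2.09 higher (adjusted p = 0.0666). A fragment outside protein-coding genes, 286 kb away, scored 0.571 and 0.457 in WT HSPC, 3.02 and 1.86 in Npm1c, 1.64 and 2.99 in Flt3-ITD, and 9.04 and 5.26 in DM, where it was called (difference 2.39, SE 0.38, limma adjusted p = 0.047). The strongest contact of the bait, by its DM mean, was with Taf15 at 252 kb. It scored 4.43 and 3.03 in WT HSPC, 7.28 and 4.66 in Npm1c, 2.17 and 3.83 in Flt3-ITD, and 11.3 and 8.32 in DM, and was not called in DM (limma adjusted p = 0.158). Among HSPC groups the 258 kb pair was listed through Flt3-ITD alone and the 286 kb pair through DM alone, which favours a difference. The Flt3-ITD call was lost with 0.5 added to the scores in place of 1 (limma adjusted p = 0.0545). Each of these single-pair calls was lost with quantile normalization, with the replicate number as a block and with same-chromosome pairs under 1 Mb. Leaving out any 1 library of the comparison lost them too. Such fits leave 1 library in a group, so that loss says little about the contact. The differences then ranged from 2.16 to 2.69 for Taf15 at 258 kb in Flt3-ITD and from 2.05 to 2.73 for the 286 kb fragment in DM.

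Ngp, a cathelin-related protein of secondary granules, shares its bait with Klhl18 and had 3 passing pairs in WT HSPC, 8 in Npm1c, 9 in Flt3-ITD, 9 in DM and 3 in neutrophils. All 19 of its other ends lay at higher coordinates, 6 of them on Setd2, a histone methyltransferase gene. Its contact with a fragment overlapping Nbeal2 and Nradd, 199 kb away, passed in all 5 groups, from 8.58 and 6.69 in WT HSPC to 10.0 and 12.2 in DM. Camp, the gene for the cathelicidin antimicrobial peptide, had no passing pair in WT HSPC or neutrophils, while Npm1c had 1, Flt3-ITD 2 and DM 1. Its strongest contact, by its Flt3-ITD mean, was with Atrip 790 kb away and scored 2.63 and 3.61 in WT HSPC, 3.69 and 3.49 in Npm1c, 9.28 and 5.14 in Flt3-ITD, and 6.33 and 5.76 in DM. The Flt3-ITD and DM libraries were above the other 4, without a call (limma adjusted p = 0.289 and 0.27).

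Pglyrp1, a granule protein that binds bacterial peptidoglycan, lies on a long bait shared with Ccdc61 (chr7:18880356-18909121). Pglyrp1 and Ly6g, described further on, are the effector genes with a single-pair call and a promoter sequence at hand, so both promoters are shown here. Sequences are RefSeq's for GRCm38.p6, from 250 bases before to 30 after the listed start, and capitals mark GAGGAAGT (a PU.1 site), TTGCNNAA (a C/EBP site) and TATAAA on either strand. Pglyrp1 is at chr7:18884440-18884719 and Ly6g at chr15:75155011-75155290, both on the plus strand.
Pglyrp1: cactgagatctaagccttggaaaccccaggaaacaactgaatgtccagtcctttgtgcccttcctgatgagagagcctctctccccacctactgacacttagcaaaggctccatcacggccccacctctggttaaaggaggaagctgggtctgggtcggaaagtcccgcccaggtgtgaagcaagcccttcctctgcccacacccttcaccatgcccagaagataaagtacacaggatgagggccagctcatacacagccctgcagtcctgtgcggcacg
Ly6g: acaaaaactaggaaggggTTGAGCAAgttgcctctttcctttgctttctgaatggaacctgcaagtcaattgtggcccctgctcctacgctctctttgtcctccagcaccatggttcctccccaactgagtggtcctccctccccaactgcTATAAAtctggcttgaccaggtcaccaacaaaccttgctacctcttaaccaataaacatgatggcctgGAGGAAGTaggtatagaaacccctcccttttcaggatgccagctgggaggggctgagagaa
The Ly6g stretch holds each of the 3 motifs, at 232 bases (C/EBP), 99 bases (TATAAA) and 31 bases (PU.1) before the start, and the Pglyrp1 stretch holds none of these letters. Both lie wholly inside their baits.

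Pglyrp1 had 4 passing pairs in WT HSPC, 6 in Npm1c, 3 in Flt3-ITD, 4 in DM and 3 in neutrophils. Its strongest contact, by its WT HSPC mean, was with Nova2, 32.0 kb away, at 12.8 and 12.5 in WT HSPC and 7.79 and 5.08 in DM (difference -0.90, limma adjusted p = 0.245). The contact with Apoe, the apolipoprotein E gene 804 kb away, scored 0 and 0 in WT HSPC, 5.24 and 5.80 in Npm1c, 0.505 and 1.89 in Flt3-ITD, and 0 and 0 in DM. It entered the list through the Npm1c libraries alone and was called there (difference 2.70, SE 0.37, limma adjusted p = 0.0327). The DM libraries, which carry the same Npm1c allele, matched WT HSPC at 0. The Npm1c call was lost with the replicate number as a block. Leaving out any 1 of the 4 libraries lost it too, with differences from 2.64 to 2.77. Such fits leave 1 library in a group, so that loss says little about the contact. A neighbouring fragment at Tomm40, 820 kb away and singled out after its values were seen, scored 0.639 and 0.232 in WT HSPC, 9.55 and 10.9 in Npm1c, 0.383 and 7.22 in Flt3-ITD, and 11.6 and 4.40 in DM.

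Of the granule genes without a bait, Lcn2, which encodes a siderophore-binding lipocalin, was the other end of 6 HSPC pairs and Hp, the haptoglobin gene, of 1. Lcn2 was met by a bait holding Cdk9 and Fpgs 327 kb away, at 8.84 and 12.2 in WT HSPC, 2.15 and 10.3 in Npm1c, 2.88 and 9.29 in Flt3-ITD, 12.4 and 3.95 in DM, and 7.78 and 5.96 in neutrophils. The replicates of each mutant group differed widely, so no order of the groups can be read from this contact. Ltf and Slpi had neither a bait nor a listed contact as an other end.

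S100a8 and S100a9 encode the subunits of calprotectin, a calcium-binding protein that fills the neutrophil cytosol, and lie side by side on chromosome 3. Their promoters are shown because the S100a8 bait begins inside one and the 2 baits contact each other. S100a8 (chr3:90668821-90669100) is on the plus strand and S100a9 (chr3:90695692-90695971) on the minus strand; capitals are as above, and AAGCTT, the HindIII site, is also in capitals.
S100a8: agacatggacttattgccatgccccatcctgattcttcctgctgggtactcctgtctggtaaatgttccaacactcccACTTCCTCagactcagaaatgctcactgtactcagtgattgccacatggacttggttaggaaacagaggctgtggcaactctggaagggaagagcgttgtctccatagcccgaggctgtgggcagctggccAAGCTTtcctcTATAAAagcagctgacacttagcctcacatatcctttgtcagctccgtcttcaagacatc
S100a9: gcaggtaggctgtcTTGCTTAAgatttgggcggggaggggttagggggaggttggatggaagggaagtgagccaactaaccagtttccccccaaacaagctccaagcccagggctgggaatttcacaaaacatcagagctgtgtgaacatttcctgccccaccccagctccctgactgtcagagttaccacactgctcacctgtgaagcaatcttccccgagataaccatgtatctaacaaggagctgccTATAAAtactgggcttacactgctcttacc
The S100a8 stretch has a HindIII site 41 bases before the start, so only 70 of its 280 bases lie on the S100a8 bait, and it holds TATAAA 30 bases and ACTTCCTC, the PU.1 letters on the other strand, 172 bases before the start. The S100a9 stretch has a C/EBP match 236 bases before the start and TATAAA at the listed start itself. As a check of the build, AAGCTT was found within 6 bases of the bait edge in 394 of 394 promoter windows that contain the lower edge of a listed bait.

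S100a8 had 8 passing pairs in WT HSPC, 8 in Npm1c, 6 in Flt3-ITD, 7 in DM and 6 in neutrophils, and S100a9 had 8, 15, 14, 9 and 5. Both were among the baits with fewer pairs in neutrophils than in WT HSPC, although neutrophils are the cells in which calprotectin is abundant. The S100a8 bait met the S100a9 fragment, 26.5 kb away, at 5.34 and 5.10 in WT HSPC, 10.3 and 6.27 in Npm1c, 9.03 and 7.50 in Flt3-ITD, 6.12 and 7.03 in DM, and 7.49 and 10.7 in neutrophils. This contact passed in all 5 groups, and the lowest libraries were those of WT HSPC. The strongest S100a8 contact, by its DM mean, was with S100a14, another S100 gene 143 kb away, at 4.86 and 6.85 in WT HSPC, 5.22 and 8.27 in Npm1c, 8.26 and 12.6 in Flt3-ITD, and 14.9 and 10.6 in DM. The lower DM library lay within the Flt3-ITD values, and no difference from WT HSPC was called (limma adjusted p = 0.208 for DM). An S100 gene overlapped the other end in 9 of 18 S100a8 pairs and in 10 of 30 S100a9 pairs. The strongest S100a9 contact, with a fragment 36.1 kb away, scored 8.25 and 5.54 in WT HSPC and 7.99 and 9.18 in neutrophils, and every library lay between 5.54 and 9.18. The mean over the S100a9 pairs was 0.38 higher in Flt3-ITD than in WT HSPC (SE 0.16, limma adjusted p = 0.181), and S100a8 moved by 0.03 (SE 0.15).

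Ncf1 and Ncf4 encode p47phox and p40phox, cytosolic subunits of the NADPH oxidase, and Cyba and Cybb its membrane subunits. The Ncf1 promoter is shown because its bait had the third most passing pairs of the set; it is at chr5:134229596-134229875 on the minus strand, and none of the motifs sought is in this stretch.
Ncf1: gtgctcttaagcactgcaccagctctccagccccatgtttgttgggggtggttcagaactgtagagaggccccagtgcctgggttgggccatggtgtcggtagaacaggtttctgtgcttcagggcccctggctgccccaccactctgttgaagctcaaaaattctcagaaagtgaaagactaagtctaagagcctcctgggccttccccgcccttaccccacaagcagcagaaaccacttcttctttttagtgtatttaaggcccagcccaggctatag
Ncf1 had 10 passing pairs in WT HSPC, 9 in Npm1c, 16 in Flt3-ITD, 23 in DM and 11 in neutrophils. Its other ends lay at higher coordinates in 29 of 30 pairs, and 15 of them touched Gtf2i, which encodes a general transcription factor. The strongest contact, by its DM mean, was with a fragment 113 kb away and scored 8.40 and 7.08 in WT HSPC, 7.60 and 9.71 in Npm1c, 10.0 and 6.53 in Flt3-ITD, 13.6 and 15.9 in DM, and 5.31 and 9.09 in neutrophils. The DM difference was not called (limma adjusted p = 0.222). The contact with Gtf2i at 75.7 kb had a higher mean than this one in the other 4 groups. Over 17 pairs chosen by the other groups, Ncf1 averaged 2.73 and 2.54 in WT HSPC and 2.99 and 3.22 in DM on the log2(score + 1) scale (difference 0.47, SE 0.15, limma adjusted p = 0.118). Of the 11 neutrophil pairs, WT HSPC had 5, Npm1c 6, Flt3-ITD 7 and DM 8. Ncf4 was listed in neutrophils alone, with 1 pair at 5.59 and 8.75. Cyba, which has no bait, was the other end of 4 HSPC pairs, of which the one from a bait holding Zc3h18, 42.2 kb away, scored from 6.19 to 11.9 over the 8 libraries. Cybb had no listed contact.

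Ly6g encodes the surface protein by which mouse neutrophils are recognised, and its bait (chr15:75153119-75158069) had 1 passing pair in WT HSPC, 3 in Npm1c, 3 in Flt3-ITD, 4 in DM and 1 in neutrophils. The neutrophil pair joined it to Ly6e, a family member expressed in many tissues, 199 kb away. That pair scored 0 and 0 in WT HSPC, 0.66 and 0.49 in Npm1c, 2.42 and 4.39 in Flt3-ITD, 7.67 and 5.02 in DM, and 5.30 and 6.52 in neutrophils. The WT and Npm1c libraries were at or near 0, those of Flt3-ITD lay between, and DM and neutrophil libraries overlapped each other. It was called in DM (difference 2.85, SE 0.35, limma adjusted p = 0.0211) and in neutrophils (difference 2.78, SE 0.30, limma adjusted p = 0.0262), while Flt3-ITD missed the threshold (difference 2.10, adjusted p = 0.0546). Among HSPC groups it was listed through DM alone, which favours a difference. The neutrophil comparison used only pairs in both lists. Its neutrophil libraries were thus at 5 or more by that choice, which favours a higher neutrophil value. Over all pairs of that comparison 0.206% were called higher and 0% lower. The DM call was lost without any 1 library of the comparison, with differences from 2.59 to 3.12. The neutrophil call was lost without either neutrophil library, with differences of 2.66 and 2.91. Such fits leave 1 library in a group, so these losses say little about the contact. With quantile normalization the DM difference was 2.67 (limma adjusted p = 0.0506) and the neutrophil difference 1.21 (limma adjusted p = 0.217), and with the replicate number as a block the neutrophil call was lost (limma adjusted p = 0.0505).

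The strongest Ly6g contact, by its Npm1c mean, lay 373 kb away, in a fragment outside protein-coding genes. It scored 3.47 and 4.03 in WT HSPC, 17.3 and 16.7 in Npm1c, 8.89 and 8.48 in Flt3-ITD, and 8.83 and 11.0 in DM, and was not in the neutrophil list. Every mutant library was above both WT libraries, yet the Npm1c difference missed the threshold (1.93, SE 0.29, limma adjusted p = 0.0553). The contact with a fragment overlapping Cyp11b1 and Gml2, 315 kb away, had higher means than this one in the other HSPC groups: it scored 3.25 and 6.84 in WT HSPC, 8.18 and 13.6 in Npm1c, 16.0 and 17.7 in Flt3-ITD, and 19.5 and 4.48 in DM. Its DM replicates spanned the values of all other groups but the lower WT library. Averaged over its listed pairs chosen by other groups, Ly6g was 0.83 higher in Npm1c (SE 0.34), 1.10 in Flt3-ITD (SE 0.33) and 0.91 in DM (SE 0.29), with limma adjusted p of 0.409, 0.107 and 0.116. Leaving out 1 library moved these differences without a call: Npm1c ranged from 0.41 without WT HSPC replicate 1 to 1.25 without WT HSPC replicate 2. Flt3-ITD fell to 0.68 without WT HSPC replicate 1, and DM to 0.57 without DM replicate 1.

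**Figure D4:**
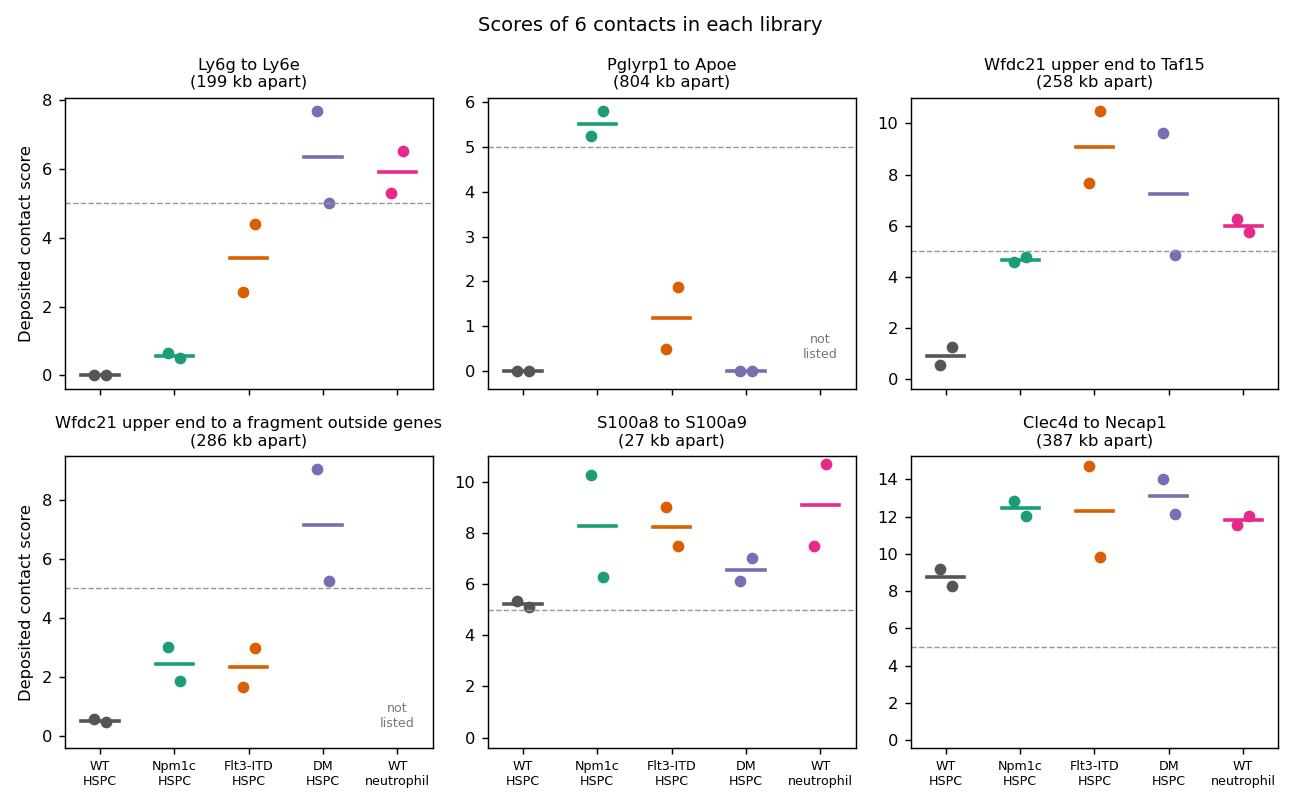
Deposited contact score (vertical axis) of 6 effector contacts in each library (points) of the 5 groups, with the group mean as a bar and the score of 5 as a dashed line. Ly6g to Ly6e is at 0 in both WT HSPC libraries and above 5 in DM and neutrophils, whereas S100a8 to S100a9 and Clec4d to Necap1 lie above 5 in all 10 libraries.

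Among the receptors, Clec4d, a C-type lectin that recognises mycobacterial glycolipids, had 3 passing pairs in WT HSPC, 3 in Npm1c, 6 in Flt3-ITD, 9 in DM and 3 in neutrophils. Its strongest contact, by its DM mean, was with Necap1, an adaptor of clathrin-coated vesicles, 387 kb away. That pair scored 9.22 and 8.29 in WT HSPC, 12.8 and 12.0 in Npm1c, 14.7 and 9.81 in Flt3-ITD, 14.0 and 12.2 in DM, and 11.6 and 12.0 in neutrophils. WT HSPC had the lowest libraries, with no call (limma adjusted p from 0.393 to 0.577 over the mutants, and 0.476 in neutrophils). Mcemp1, a mast-cell and myeloid membrane protein, had a lower-end bait with 0, 0, 1, 4 and 4 passing pairs in WT, Npm1c, Flt3-ITD and DM HSPC and neutrophils, and an upper-end bait, shared with Fcor and Trappc5, with 0, 0, 2, 1 and 3. The lower-end bait met Map2k7, a stress-kinase gene 574 kb away, at 3.58 and 4.11 in WT HSPC, 3.77 and 3.24 in Npm1c, 5.47 and 3.34 in Flt3-ITD, 11.1 and 15.3 in DM, and 7.61 and 7.00 in neutrophils. DM and neutrophil libraries were above all others, but neither difference was called (1.54 in DM, limma adjusted p = 0.0905; 0.78 in neutrophils, limma adjusted p = 0.212). The upper-end bait met the same Map2k7 fragment at 6.87 and 1.71 in WT HSPC and 10.4 and 6.05 in neutrophils, a spread that leaves no order.

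Cd177, a GPI-anchored neutrophil surface protein, had a single listed pair, with Cadm4 276 kb away. It scored 5.15 and 7.33 in WT HSPC, 1.84 and 1.87 in Npm1c, 4.39 and 2.65 in Flt3-ITD, and 2.26 and 1.20 in DM. It passed in WT HSPC alone and was the effector bait with the widest range of HSPC group means, and it was not called (-1.33 in Npm1c, limma adjusted p = 0.222; -1.42 in DM, limma adjusted p = 0.115). The formyl-peptide receptor genes Fpr1 and Fpr2 lie on neighbouring baits. Fpr1 met Lnpep 260 kb away in neutrophils alone, at 6.14 and 5.52, and in HSPC a fragment 117 kb away at 3.18 and 2.90 in WT, 4.53 and 4.72 in Npm1c, 6.78 and 5.69 in Flt3-ITD, and 7.74 and 2.65 in DM. Fpr2 met Spaca6 at 55.8 kb, at 3.78 and 2.28 in WT HSPC, 7.85 and 5.08 in Npm1c, 5.85 and 3.76 in Flt3-ITD, and 4.92 and 2.94 in DM, with no call in any HSPC comparison for either gene.

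Il1r2, the decoy receptor for interleukin-1, and Trem1, an amplifier of inflammatory signals, had 0 to 3 passing pairs per bait and group. Il1r2 met Il18rap, a subunit of the interleukin-18 receptor 432 kb away, in WT HSPC, DM and neutrophils. Another Il18rap fragment, 463 kb away, passed in Flt3-ITD alone, at 7.00 and 5.08. From a bait holding Il18rap, an Il1r2 fragment 390 kb away passed in WT HSPC and Npm1c. Trem1 has a bait at its start and another at its upper end shared with Trem3, and both met Mdfi. From the start, Mdfi scored 3.94 and 8.28 in WT HSPC and 19.9 and 17.2 in DM (difference 1.52, SE 0.55, limma adjusted p = 0.194). The receptor genes Mrgpra2a, Mrgpra2b and Clec4e had neither a bait nor a listed contact.

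Of the remaining effectors, Alox5ap, which hands arachidonic acid to 5-lipoxygenase for leukotriene synthesis, differed most in which fragments it met. It had 1 passing pair in WT HSPC, 0 in Npm1c, 0 in Flt3-ITD, 4 in DM and 6 in neutrophils. All 9 of its other ends lay at lower coordinates, and 5 of the 6 neutrophil pairs were not in the HSPC list. Those included Uspl1 at 81.0 kb, with 10.8 and 11.4, and 2 neighbouring fragments overlapping Hmgb1, at 216 kb with 13.4 and 7.42 and at 212 kb with 11.0 and 9.41, where Hmgb1 encodes a nuclear DNA-binding protein that is released as an alarmin. The neutrophil pair that was also in the HSPC list, 199 kb away, scored 5.50 and 2.98 in WT HSPC, 4.78 and 3.76 in Npm1c, 4.45 and 1.83 in Flt3-ITD, 5.98 and 6.23 in DM, and 6.03 and 5.18 in neutrophils. DM was the HSPC group in which it passed. The fragment at 212 kb is itself a bait, and from it the Alox5ap fragment was met with scores of 12.8 and 5.68 in WT HSPC, 7.51 and 7.80 in Npm1c, 7.50 and 7.95 in Flt3-ITD, 7.56 and 9.84 in DM and 10.1 and 9.61 in neutrophils, so from that bait the contact was listed and passed in progenitors as well.

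Ifitm6, an interferon-induced transmembrane protein of myeloid cells, went the other way, with 18 passing pairs in WT HSPC, 15 in Npm1c, 18 in Flt3-ITD, 13 in DM and 8 in neutrophils. All 8 neutrophil pairs also passed in WT HSPC. They included the neighbours Ifitm1, Ifitm2 and Ifitm5 at 45.3 to 68.8 kb. The strongest pair, by its DM mean, joined it to the ribonuclease inhibitor gene Rnh1 153 kb away and scored 14.8 and 12.9 in WT HSPC, 17.6 and 17.6 in Npm1c, 19.6 and 21.7 in Flt3-ITD, 23.2 and 23.6 in DM, and 7.24 and 15.9 in neutrophils. All mutant libraries were above both WT libraries, with no call (limma adjusted p = 0.227 for DM), and the neutrophil replicates spanned the WT values. In the other 4 groups a pair with a fragment outside protein-coding genes, 163 kb away, had a higher mean than this one, at 15.4 and 21.2 in WT HSPC and 17.2 and 15.7 in DM. Over the 8 pairs passing in both cell types, Ifitm6 averaged 3.66 and 3.76 in WT HSPC and 3.25 and 3.49 in neutrophils on the log2(score + 1) scale (difference -0.34, SE 0.16, limma adjusted p = 0.237).

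Padi4, the enzyme that citrullinates histones when neutrophils cast DNA traps, had 1 listed pair, with its paralog Padi2 136 kb away. It scored 4.97 and 4.61 in WT HSPC, 4.78 and 4.67 in Npm1c, 7.91 and 5.14 in Flt3-ITD, 6.08 and 8.32 in DM, and 6.05 and 5.70 in neutrophils, so the WT and Npm1c libraries fell just short of 5. Anxa1, the annexin that restrains neutrophil recruitment, was listed in neutrophils alone, with 1 pair 1084 kb away at 7.64 and 7.84. Cxcl2, a neutrophil-attracting chemokine gene without a bait, was the other end of a neutrophil pair from a bait holding Pf4 and Ppbp 131 kb away, at 5.14 and 5.97. Il1b, Chil3 and the stefin genes Stfa1, Stfa2, Stfa2l1 and Stfa3 had no listed contact.

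Promoter windows of 300 bases were found for 32 of the 36 genes, and Alox5ap, Hp, Ncf4 and Wfdc21 had no entry. TATAAA, in either strand, was in the windows of 12 of the 32 genes (37.5%, against 15.7% of all 27025 genes), TTGCNNAA in 9 (28.1%, against 12.2%) and GAGGAAGT in 2 (6.25%, against 3.69%). Anxa1, Clec4e, Lcn2, Ltf, Ly6g, Ngp, S100a9, Slpi and Stfa1 carried TTGCNNAA, and Ly6g and S100a8 carried GAGGAAGT. A match describes the letters in the window and not a bound site.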

How the data were processed

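The 10 promoter-capture Hi-C libraries came as 1 table each. Per the file headers, a row gives a bait, an other end, the distance between them in bp (another kind of value, used only through the deposited fragment positions) and a score. The deposited score was made by the authors with a caller and scaling not given in the sources used here; the labels name mm10. Read counts and depth were not used here, so no counting interval can be given, and a contact below the listing mark is not shown to be absent. The 8 HSPC tables list the same pairs and the 2 neutrophil tables another set.

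Members and lists were chosen with earlier results of these data known. A member was matched to baits by RefSeq gene positions (GRCm38.p6). Tests used limma 3.58.1 in R 4.3.3 on log2(score + 1) (lmFit, eBayes, two-sided, Benjamini-Hochberg over all baits or pairs at 0.05), with all 8 HSPC libraries, or the 4 WT libraries for neutrophils, in 1 fit. Bait means used pairs brought in by groups outside the comparison (for neutrophils, pairs passing in both cell types) and baits with at least 3 of them, with the prior variance as a trend on the number of pairs. The code was tested on simulated data. P-values measure the spread between 2 biological replicates a group, which the labels state. Library values are given for called baits and pairs, the 10 baits differing most in pair number between neutrophils and WT HSPC, the 6 with the widest range of HSPC means, and the strongest pair of each; other members described with values were added for their role. Alternatives were another pseudocount, quantile normalization, a replicate block, other minimum pair numbers, pair sets and scores, and leaving out each library.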

Additional observations from a re-analysis of the deposited data

Results flagged for a closer look

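The 2 mutations combine in DM, so the effect of each can be read with and without the other. For 6 effector baits, all libraries moved one way when a mutation was added to WT cells and all moved the opposite way when it was added to cells with the other mutation. The values below are the difference between those effects, which is the excess of DM over the sum of the single-mutant changes, in mean log2(score + 1) over all listed pairs. Over all 7696 baits tested, 21.8% show such an opposite pattern, and the limma interaction test called 5.2% of them and 0 of the 16 effector baits, of which 6 had an unadjusted p under 0.05, beside 24.2% of all baits. The opposite directions themselves were not called different for any of these baits.

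For Trem1 upper end the value was -1.12 (SE 0.29, limma adjusted p = 0.053). Its means were 1.99 and 2.15 in WT HSPC, 2.80 and 2.78 in Npm1c, 2.72 and 2.83 in Flt3-ITD, and 2.32 and 2.42 in DM, so each mutation alone was above WT and DM lay below both single mutants. Camp, with 3 pairs, had -1.72 (adjusted p = 0.083), with DM at 1.69 and 2.20 below Npm1c at 2.40 and 2.34. S100a9 had -0.474 (adjusted p = 0.2) and Ngp -0.255 (adjusted p = 0.463), both with DM inside or below the range of the single mutants.

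Alox5ap and Mcemp1 lower end went the other way. Alox5ap had 0.915 (SE 0.31, adjusted p = 0.108): Flt3-ITD, at 2.14 and 2.02, lay below WT HSPC at 2.34 and 2.35, while DM, at 2.84 and 3.02, lay above Npm1c. Mcemp1 lower end had 1.11 (SE 0.32, adjusted p = 0.073), with Npm1c at 1.49 and 1.90 below WT HSPC and DM at 2.70 and 2.95 above Flt3-ITD. All listed pairs enter these means, and a pair is listed because some group scored high.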

How the results depend on the processing

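Replicate numbers showed little sign of pairing the samples. Deviations of same-numbered HSPC libraries correlated between -0.013 and 0.132 over 7696 baits, and those of WT HSPC and neutrophils at -0.054. The 0.132 was for Npm1c with Flt3-ITD, and whether those libraries share a batch was not tested. The 6 called differences of single baits and pairs lost the call in 38 of 53 alternative fits and kept it in 15. For the 13 bait differences that were not called, 173 of 176 alternative fits also gave no call, and 3 gave one (Wfdc21 lower end, Ly6g and Ncf1 in DM with all listed pairs). Some of these fits left out 1 library, leaving 1 in a group, where a lost call says little about a single bait or pair. No direction changed in any of the alternative fits. The DM bait call (1 effector bait) went to 0 with quantile normalization, the replicate block or a constant prior variance. It also went to 0 with at least 1 pair per bait or only the 4 libraries compared. With at least 10 pairs per bait the count was 0, but the called bait had 7 pairs and was not tested there. With all listed pairs of the bait the count was 6 of 16, beside 1300 of 7696 baits (16.9%) called over all. Pairs listed through DM alone enter under that setting. With the replicate block, calls of single pairs went to 0 for Npm1c, Flt3-ITD and neutrophils, and from 2 to 1 for DM. Over all pairs that setting called 200 in Npm1c, 358 in Flt3-ITD, 0 in neutrophils and 290 in DM. Quantile normalization left 0 in DM and 0 in neutrophils, and in Flt3-ITD 1 of the opposite direction, a Clec4d pair that was lower. Over all pairs it called 329 in DM, 0 in neutrophils and 460 in Flt3-ITD. With pairs under 1 Mb the counts were 0 for Npm1c, 0 for Flt3-ITD and 1 for DM, beside 13, 54 and 190 of all 83821 such pairs. With pairs chosen by groups outside the comparison they were 0 for Npm1c, 0 for Flt3-ITD and 0 for DM, and for neutrophils 0 with pairs passing in both cell types. Over all such pairs the calls were 0 of 66793, 17 of 63453 and 0 of 61361, and for neutrophils 0 of 7936. Leaving out 1 library leaves 1 in a group, so the calls of those fits are not counted here for single pairs. Baits with more pairs in neutrophils fell from 11 to 6 at a score of 7 and to 2 at 10. The cause of these changes was not tested. Baits with 0 called in Npm1c, Flt3-ITD and neutrophils stayed at 0 under every setting run. With 2 libraries a group and unknown depth, a missed call does not show that groups are alike.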

Other observations

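Neutrophil promoters outside the effector set went both ways in pair number between cell types. Of 21 such baits with a pair in WT HSPC or neutrophils, 15 had more in neutrophils and 5 fewer (36.2% and 53.8% over all baits). Among those with fewer, a bait holding Elane had 15 in WT HSPC and 5 in neutrophils, that of Fcgr4 4 and 2, and that of Ctsg 2 and 0. Retnlg, a resistin-like gene of mature neutrophils, had 0 passing pairs in every HSPC group and 22 in neutrophils. The baits of Mmp8, the neutrophil collagenase gene, had 2 and 4 in WT HSPC, 11 and 16 in DM and 9 and 15 in neutrophils. Erythroid promoters (11 of 12 genes with a bait) held 70 passing pairs in WT HSPC, 60 in Npm1c, 67 in Flt3-ITD, 45 in DM and 37 in neutrophils. B-cell promoters (6 of 10 genes) held 14, 16, 32, 26 and 5. Within these lists and the stem and progenitor list, limma called 1 bait, that of Meis1, a stem-cell transcription factor gene, in DM (difference 1.32, SE 0.29, adjusted p = 0.048). The baits tested in DM were 7 for stem and progenitor, 9 for other neutrophil, 5 for erythroid and 2 for B-cell genes. Over all baits 2% were called higher in DM. These lists were chosen with earlier results known and carry no test of their own.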
